A study of Mus musculus with 12 samples.

Results

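Chemokine ligands are small secreted or membrane-held proteins that bind G protein-coupled receptors on leukocytes and direct where those cells move. They were followed here as every protein-coding gene of the count table with a mouse symbol that begins with Ccl, Cxcl, Xcl or Cx3cl and a digit. The rule gave 44 gene identifiers out of 55487 counted genes, of which 21974 are protein-coding. They carry 39 distinct symbols, 37 lie on chromosomes and 7 on unplaced scaffolds of the mouse build GRCm38. A read was found in at least 1 tumor for 33 of them, and 27 had enough counts for a test between genotypes. The data are messenger RNA profiles of 12 mouse melanoma tumors. The 6 wild-type tumors carry BrafCA, a conditional activated Braf allele, and Cdkn2a f/f, a floxed tumor suppressor gene (labelled BrafCA;Cdkn2af/f). The 6 Arf6-null tumors carry the same alleles and floxed Arf6 (labelled BrafCA;Cdkn2af/f;Arf6f/f). Arf6 is a small GTPase of membrane traffic. The comparison asks what differs when the tumor lacks it. The labels name no Cre driver, strain, age or sex and do not say whether each tumor came from its own animal, so a p-value here reflects only how much these libraries varied.

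Chemokines are grouped by the spacing of their first cysteines into CC, CXC, C and CX3C families, and by the receptor they engage. CXC ligands with the ELR motif bind CXCR2 and attract neutrophils, interferon-inducible CXC ligands bind CXCR3 on activated T and natural killer cells, and CC ligands of CCR2 draw monocytes out of the blood. In melanoma, tumor cells, fibroblasts, endothelium and infiltrating myeloid cells can all make them, so a level in a whole tumor is a sum over sources.

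Totals ran from 22211738 to 30326419 counts in wild-type and from 21007954 to 45688253 in Arf6-null libraries. Levels are given in CPM, counts per 1000000 of the scaled library size. Arf6 had a lowest, median and highest level of 84.2, 107 and 147 CPM in wild-type and 12.2, 18.7 and 22.5 CPM in Arf6-null tumors, and the groups did not overlap (log2 fold change -2.60, edgeR adjusted p = 1.01e-04). Of 7 melanocyte genes only Mitf and Pmel had enough counts to test. Mlana had no read in any library, and Tyr, Tyrp1 and Dct had at most 2 reads per genotype, so these defining pigment genes did not mark the tissue named in the labels. Skeletal muscle genes were high in wild-type replicates 3, 4 and 5, with mean log2(CPM + 1) scores of 6.82 to 7.35 against at most 3.58 in the other libraries. In 4 libraries (wild-type replicates 3, 5 and 6, Arf6-null replicate 6) Xist was above 100 CPM, so the sexes were not balanced. Library numbers were 1 to 6 in wild type and 19 to 24 in Arf6-null, so anything that goes with these numbers cannot be told apart from genotype. What the numbers stand for is not stated in the labels. Replicates are numbered here in the order of library number within each genotype. A replicate number shared by both genotypes therefore does not link their tumors.

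No chemokine ligand passed the test between genotypes. Of the 27 tested, 0 were higher and 0 were lower in Arf6-null tumors once p-values were adjusted (edgeR, under 0.05), where 0.586% and 0.561% of all 16225 tested genes were. At an unadjusted edgeR p under 0.05, 0 were higher and 2 were lower, against a background of 11.0% and 12.4%. At an adjusted p under 0.1, 0 were higher and 2 were lower, against 3.95% and 4.43%. limma-voom called 0 of the 27 ligands in either direction, where it called 513 higher and 483 lower of all 16225 genes. DESeq2 was run without the count filter and called 2 lower and 0 higher of 33 ligands. Of its 33373 genes it called 1255 (3.76%) lower and 986 higher. Its totals of 33 and 33373 include genes that it gave no adjusted p. In every tested ligand the wild-type and Arf6-null values overlapped, while 1.15% of all tested genes lay wholly higher and 1.21% wholly lower in Arf6-null tumors. With 27 genes, a share of 0.586% or 0.561% would amount to fewer than 1 call. The counts of 0 at an edgeR adjusted p under 0.05 are therefore near the background. The larger backgrounds at an unadjusted p under 0.05 or an adjusted p under 0.1 would not amount to fewer than 1 call. Whether the ligand counts there depart from those backgrounds was not tested. Log2 fold changes, Arf6-null over wild type, were positive for 11 ligands and negative for 16. Their median was -0.03, as was the median over all tested genes.

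Estimates for the ligands were less precise than for most genes. The median size of the log2 fold change was 0.83 among the 27 ligands and 0.25 among all tested genes, and the median standard error was 0.68 against 0.22. For several ligands 1 tumor held much of the total. Wild-type replicate 5 held 80.2% of all Cxcl13 CPM summed over the 12 tumors. Wild-type replicate 2 held 63.1% of Cxcl2, wild-type replicate 4 held 50.5% of Cx3cl1, and wild-type replicate 6 held 48.7% of Ccl17 and 48.1% of Ccl22. At the other end, the coefficient of variation over 12 tumors was 0.143 for Ccl25, 0.158 for Ccl27a and 0.305 for Cxcl16. In bulk tumors, fewer cells of a type and less RNA per cell cannot be told apart.

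**Figure D1:**
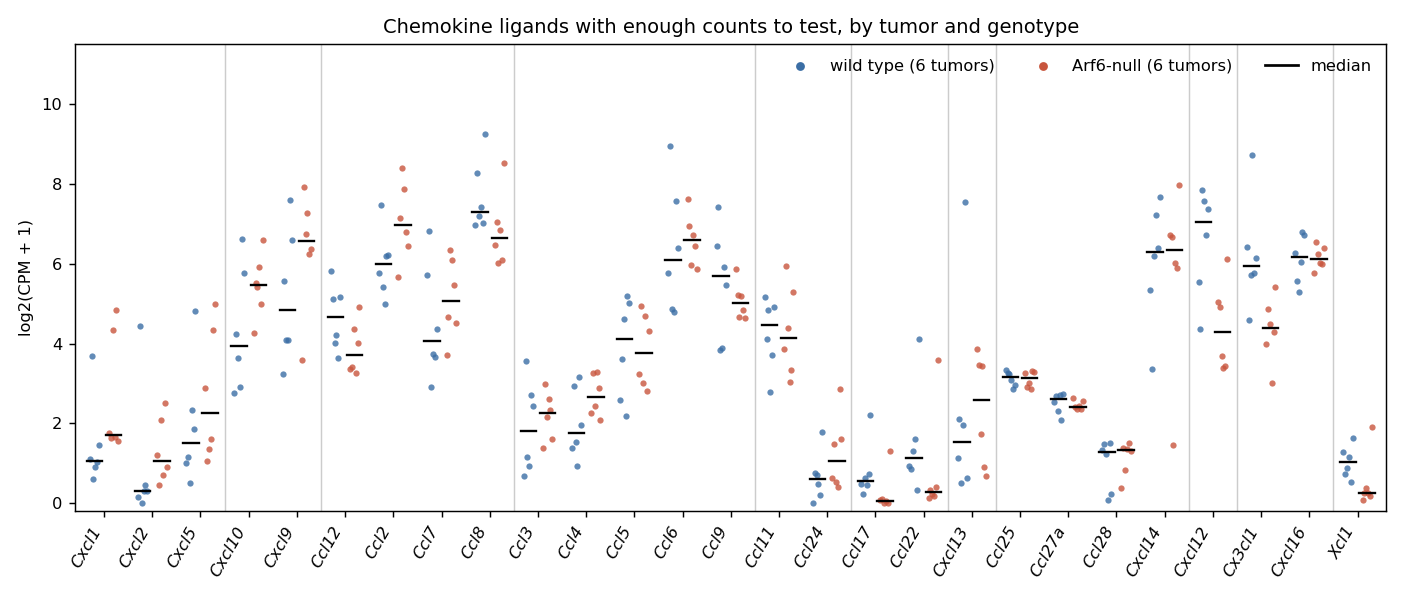
Level of each of the 27 tested chemokine ligands (x axis, ordered by role) as log2(CPM + 1) (y axis), with 1 point per tumor in blue for the 6 wild-type and red for the 6 Arf6-null tumors and a black line at each median. The genotypes overlap in every ligand, and single tumors stand far above the rest for Cxcl13 (wild-type replicate 5, 185 CPM) and Cxcl2 (wild-type replicate 2, 20.5 CPM).

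**Figure D2:**
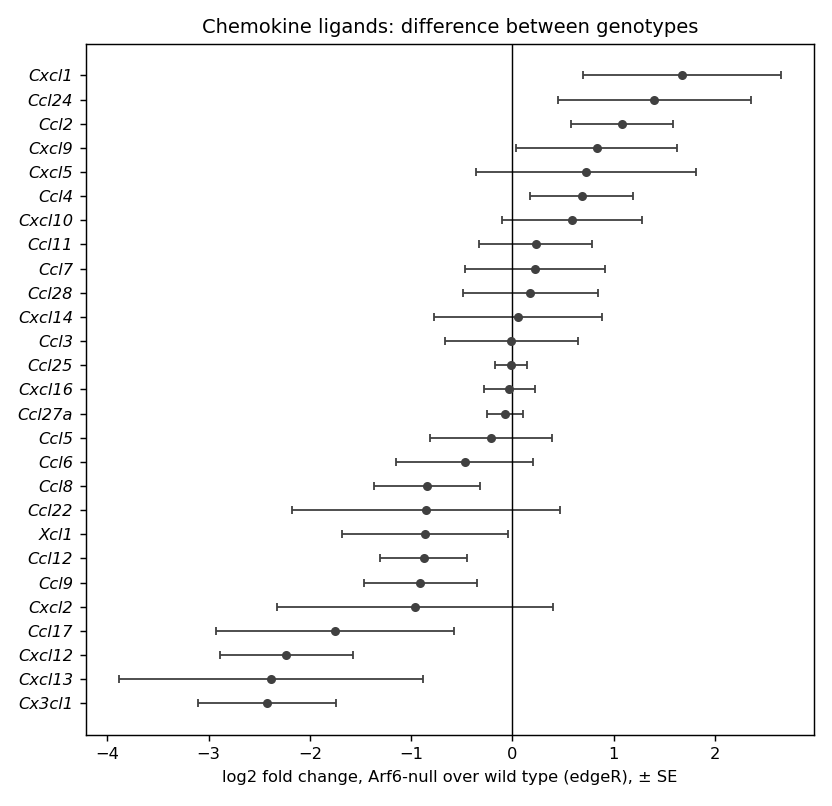
Log2 fold change of each tested chemokine ligand, Arf6-null over wild type (x axis), with bars of 1 standard error from edgeR and ligands ordered by value (y axis). Values run from -2.42 for Cx3cl1 to 1.68 for Cxcl1, and none passed the threshold.

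Both ligands with an unadjusted p under 0.05 had lower means in Arf6-null tumors, and neither passed after adjustment. Cx3cl1 (chr8:94772009-94782427, + strand), or fractalkine, is anchored in the membrane of endothelial and epithelial cells by a mucin stalk and binds CX3CR1 on monocytes, macrophages and cytotoxic lymphocytes. Cx3cl1 had a lowest, median and highest level of 23.3, 61.5 and 424 CPM in wild-type tumors and of 7.03, 20.1 and 41.7 CPM in Arf6-null tumors. Wild-type replicate 4 was the highest of all tumors, wild-type replicate 2 lay inside the Arf6-null range, and Arf6-null replicate 4 was the lowest. The means were 118 ± 151 and 21.9 ± 11.9 CPM (SD, n = 6 each), a log2 fold change of -2.42, with a standard error of 0.68 (edgeR adjusted p = 0.0747). Its receptor Cx3cr1 had a lowest, median and highest level of 18.2, 81.4 and 169 CPM in wild type and 14.0, 35.1 and 82.2 CPM in Arf6-null, which overlapped (log2 fold change -1.06, edgeR adjusted p = 0.235).

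Cxcl12 (chr6:117168535-117181367, + strand), the stromal ligand of CXCR4 that retains leukocytes and guides endothelial and tumor cells, had a similar distribution. Cxcl12 had a lowest, median and highest level of 19.5, 135 and 228 CPM in wild-type tumors and of 9.48, 20.5 and 67.9 CPM in Arf6-null tumors. All 4 of its highest tumors were wild type, replicates 3, 4, 6 and 5. Wild-type replicate 2 again lay inside the Arf6-null range, and so did wild-type replicate 1, at 45.8 CPM. The means were 125 ± 82.8 and 26.7 ± 22.5 CPM (SD, n = 6 each), a log2 fold change of -2.23, with a standard error of 0.66 (edgeR adjusted p = 0.0821).

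The means of both CXCL12 receptors lay the other way. Cxcr4, the signalling receptor, had a lowest, median and highest level of 21.8, 63.9 and 81.2 CPM in wild type and 43.4, 104 and 152 CPM in Arf6-null tumors. Ackr3, which binds CXCL12 without G protein signalling and removes it from the surroundings, had 39.6, 75.5 and 109.6 CPM in wild type and 75.03, 144 and 264 CPM in Arf6-null. Both pairs of groups overlapped. The log2 fold changes of 0.84 for Cxcr4 and 0.99 for Ackr3 did not pass (edgeR adjusted p = 0.155 and 0.0876). The plot of ligand and receptor levels shows these values by tumor.

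**Figure D3:**
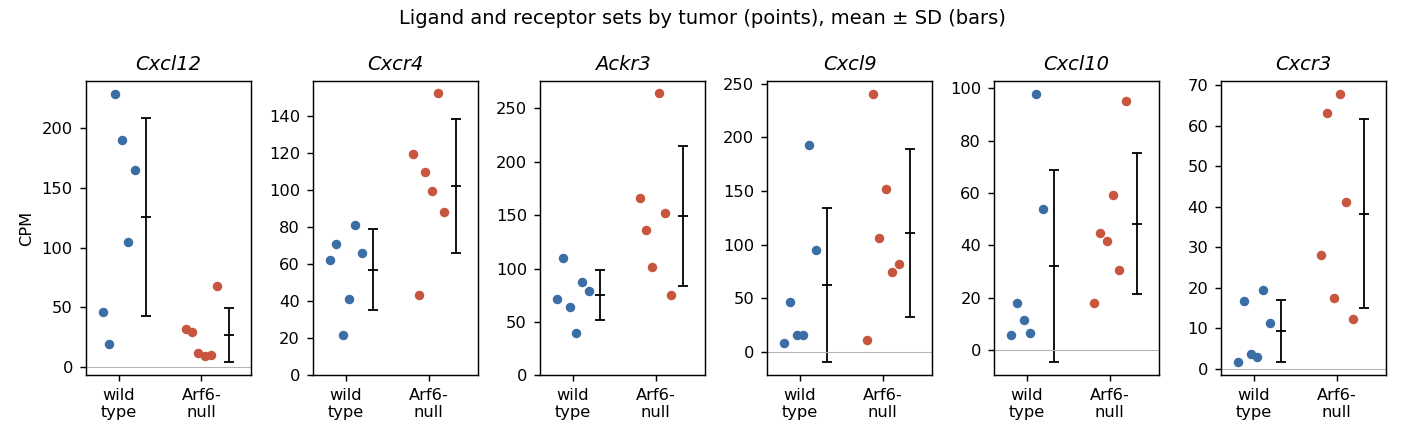
CPM (y axis, starting at or just under 0, with its own scale in each panel) of Cxcl12 with its receptors Cxcr4 and Ackr3, and of Cxcl9 and Cxcl10 with their receptor Cxcr3, in 6 wild-type (blue) and 6 Arf6-null (red) tumors. Points are tumors, and the horizontal mark with its bar is the mean ± SD. Cxcl12 averaged 125 CPM (wild type) and 26.7 CPM (Arf6-null), Cxcr3 averaged 9.33 and 38.3 CPM, and all 6 genes overlapped between genotypes.

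Whether Cx3cl1 and Cxcl12 passed the threshold depended on the test and on which tumors were counted. With all 12 tumors, DESeq2 called both lower in Arf6-null (log2 fold changes -2.41 and -2.22, DESeq2 adjusted p = 0.00393 and 0.00679). It called 3.76% of all its genes lower. Without wild-type replicate 2, Cx3cl1 and Cxcl12 were lower in Arf6-null tumors (edgeR log2 fold changes -2.64 and -2.46, adjusted p = 0.0445 and 0.0433), where 2.32% of all genes were. Without Arf6-null replicate 6, Cxcl12 was again called (log2 fold change -2.77, edgeR adjusted p = 0.0422). Without wild-type replicates 3, 4 and 5, the muscle-rich tumors, neither was (log2 fold changes -1.42 and -1.51, edgeR adjusted p = 0.264 and 0.393). In that fit only 21 of all 16992 tested genes were called lower. Leaving out wild-type replicate 4 alone moved Cx3cl1 to -1.37 (edgeR adjusted p = 0.129). Over all settings tried the adjusted p ran from 0.00393 to 0.264 for Cx3cl1 and from 0.00679 to 0.393 for Cxcl12.

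Markers of stromal cells that can make these ligands also sat lower on average in Arf6-null tumors, with overlap. The summed CPM of 9 fibroblast markers ran from 6644 to 23717 in wild type and from 2285 to 16003 in Arf6-null. That of 9 endothelial and lymphatic markers ran from 179 to 422 in wild type and from 86.8 to 348 in Arf6-null, and that of 9 skeletal muscle markers from 24.97 to 2120.5 and from 5.73 to 60.2. All 9 fibroblast markers, 8 of 9 endothelial markers and all 9 muscle markers had enough counts to test. Of these only Pvalb, a muscle gene, passed the test, lower in Arf6-null (edgeR adjusted p = 0.0392). None of the marker genes of these lists was at 0 in all libraries. Their part in the ligand values was not tested.

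Cxcl16, the other membrane-anchored ligand, binds CXCR6 on T cells and also takes up oxidized lipoprotein. Cxcl16 had a lowest, median and highest level of 38.01, 70.4 and 110.1 CPM in wild-type tumors and of 53.4, 68.97 and 92.3 CPM in Arf6-null tumors. It was among the most even of the ligands, and the log2 fold change was -0.03, with a standard error of 0.25 (edgeR adjusted p = 0.955). Its receptor Cxcr6 averaged 6.78 CPM (wild type) and 6.58 CPM (Arf6-null). ADAM10 and ADAM17 are the proteases that cut both membrane-anchored ligands from the cell surface. Adam10 had a lowest, median and highest level of 141, 192 and 219 CPM in wild-type and 146, 159 and 212 CPM in Arf6-null tumors (log2 fold change -0.13, edgeR adjusted p = 0.605). Adam17 had a lowest, median and highest level of 98.1, 139.9 and 181 CPM in wild-type and 164, 207 and 235 CPM in Arf6-null tumors, with overlap (log2 fold change 0.51, edgeR adjusted p = 0.0815).

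The interferon-inducible CXCR3 ligands moved together across tumors and were not separated by genotype. Cxcl9, which myeloid cells make in response to interferon gamma, had 8.35, 46.5, 15.9, 16.004, 193 and 94.9 CPM in wild-type replicates 1 to 6. In Arf6-null replicates 1 to 6 it had 11.1, 239.8, 106, 152, 75.1 and 81.7 CPM. Only 1 Arf6-null tumor was as low as the 4 lowest wild-type tumors, while wild-type replicates 5 and 6 lay well inside the Arf6-null range. The log2 fold change was 0.83, with a standard error of 0.80 (edgeR adjusted p = 0.561), and it was 1.61 without wild-type replicate 5 and 0.45 without Arf6-null replicate 2. Cxcl10 had a lowest, median and highest level of 5.76, 14.7 and 97.7 CPM in wild-type tumors and of 18.2, 43.2 and 95.2 CPM in Arf6-null tumors. Cxcl10 is induced by both types of interferon and by NF-kappaB, and its difference did not pass either (log2 fold change 0.59, standard error 0.69, edgeR adjusted p = 0.641). Without 1 library it ran from 0.28 (Arf6-null replicate 6) to 1.34 (wild-type replicate 5). Cxcl11, another ligand of this receptor, is annotated as a polymorphic pseudogene and so is no member. It had 54 reads in wild-type and 127 in Arf6-null libraries.

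Across the 12 tumors, Cxcl10 followed Cxcl9. On log2(CPM + 1), Pearson's r was 0.87 (permutation p = 3.70e-04, adjusted p = 0.00573) and Spearman's rho was 0.82 (permutation p = 0.00198, adjusted p = 0.0140), with adjustment over 31 pairs of genes. By the same measure r was 0.79 without the 2 tumors farthest from the median, 0.98 within wild type and 0.65 within Arf6-null. Ifng, which encodes interferon gamma, was low and uneven, from 0.164 to 2.46 CPM in wild type and from 0.251 to 5.45 CPM in Arf6-null (edgeR adjusted p = 0.310). Cxcl9 was high in the tumors with most Ifng: Pearson's r was 0.81 (permutation p = 0.00155, adjusted p = 0.00961) and Spearman's rho was 0.83 (permutation p = 0.00165, adjusted p = 0.0140). Here r was 0.81 without the 2 tumors farthest from the median, 0.76 within wild type and 0.84 within Arf6-null. For Ifng and Cxcl10, Pearson's r was 0.69 (permutation p = 0.0128, adjusted p = 0.0397) and Spearman's rho was 0.80 (permutation p = 0.00251, adjusted p = 0.0140), and r was 0.81 without the 2 tumors farthest from the median, 0.82 within wild type and 0.60 within Arf6-null.

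The receptor Cxcr3 had a lowest, median and highest level of 1.67, 7.51 and 19.6 CPM in wild type and 12.2, 34.6 and 67.8 CPM in Arf6-null tumors. The Arf6-null values were higher on average and overlapped the wild-type values (log2 fold change 2.03, standard error 0.64, edgeR adjusted p = 0.0985). CXCR3 is carried by activated T and natural killer cells and some dendritic cells. The summed CPM of 9 T cell markers ran from 19.3 to 187 in wild type and from 19.8 to 144 in Arf6-null, and that of 7 cytotoxic lymphocyte markers from 40.7 to 282 and from 67.7 to 210.3. The median sum was lower in Arf6-null for the first list, at 34.4 against 72.7 CPM, and higher for the second, at 114 against 70.8 CPM, and no gene of either list passed the test. Their part in the Cxcr3 and ligand values was not tested.

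The neutrophil-attracting ELR chemokines were low in most tumors and high in a few of either genotype. Cxcl1 had 1.15, 11.9, 0.511, 0.887, 1.04 and 1.73 CPM in wild-type replicates 1 to 6. It had 2.36, 2.10, 19.2, 2.15, 27.4 and 1.96 CPM in Arf6-null replicates 1 to 6. All 6 Arf6-null tumors lay above 5 of the 6 wild-type tumors, and wild-type replicate 2 was exceeded only by Arf6-null replicates 3 and 5. The log2 fold change was 1.68, with a standard error of 0.98 (edgeR adjusted p = 0.324). It was 3.10 without wild-type replicate 2 (edgeR adjusted p = 0.0617) and 0.95 without Arf6-null replicate 5 (edgeR adjusted p = 0.583). Cxcl2 had a lowest, median and highest level of 0, 0.236 and 20.5 CPM in wild-type tumors and of 0.363, 1.08 and 4.66 CPM in Arf6-null tumors. The same 3 tumors, wild-type replicate 2 and Arf6-null replicates 3 and 5, were highest for Cxcl2 as for Cxcl1, in another order (log2 fold change -0.96, standard error 1.36, edgeR adjusted p = 0.705). Without wild-type replicate 2, the log2 fold change of Cxcl2 was 3.21, in the other direction (edgeR adjusted p = 0.0523). For the pair, Pearson's r was 0.83 (permutation p = 0.00314, adjusted p = 0.0139). Spearman's rho was 0.90 (permutation p = 2.10e-04, adjusted p = 0.00651). Within wild type r was 0.98, and within Arf6-null it was 0.95. It was 0.96 without the 2 tumors farthest from the Cxcl1 median, Arf6-null replicates 5 and 3. Wild-type replicate 2, the highest wild-type tumor for both genes, stayed in for the values of 0.96 and 0.98. The relation without that tumor was not computed.

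Cxcl3, a close relative of both, had too few counts in most tumors for the test. Wild-type replicate 2 had 17.9 CPM, 84.7% of the sum over all tumors, and no other tumor exceeded 0.836 CPM. Cxcl5 had a lowest, median and highest level of 0.426, 1.94 and 27.4 CPM in wild-type tumors and of 1.06, 4.24 and 30.6 CPM in Arf6-null tumors. Its highest tumors were Arf6-null replicate 6, wild-type replicate 6 and Arf6-null replicate 5. The log2 fold change was 0.73 (edgeR adjusted p = 0.722), 2.43 without wild-type replicate 6 and -0.02 without Arf6-null replicate 6. No relation of Cxcl5 with Cxcl1 or Cxcl2 was detected (Pearson's r with Cxcl1 0.15, permutation p = 0.649, and Spearman's rho 0.22, permutation p = 0.498). The neutrophil marker score, a mean of log2(CPM + 1), was highest in Arf6-null replicate 5 (4.49), wild-type replicate 2 (4.28) and then Arf6-null replicate 3 (4.18). These are the same 3 tumors as for Cxcl1. The other 9 tumors had scores of at most 3.93, and a part of neutrophils in the ligand levels was not tested. The receptor Cxcr2 averaged 3.65 CPM (wild type) and 5.74 CPM (Arf6-null). Wild-type replicate 2 was also the highest tumor for the platelet CXC chemokines Pf4, at 97.6 CPM, and Ppbp, at 8.73 CPM.

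The promoters of Cxcl1, Cxcl2 and Cxcl3 are shown because the same tumor was high for all 3 genes, together with that of Cxcl10, which followed Ifng. Each is the 250 bases before the transcription start in RefSeq, build GRCm38.p6, read 5′ to 3′ on the gene's strand. Capitals mark matches to the NF-kappaB consensus and, in Cxcl10, also to the interferon-stimulated response element GAAANNGAAA. The regions are chr5:90890995-90891244 (+ strand), chr5:90903649-90903898 (+ strand), chr5:90785851-90786100 (+ strand) and chr5:92348890-92349139 (- strand).
Cxcl1: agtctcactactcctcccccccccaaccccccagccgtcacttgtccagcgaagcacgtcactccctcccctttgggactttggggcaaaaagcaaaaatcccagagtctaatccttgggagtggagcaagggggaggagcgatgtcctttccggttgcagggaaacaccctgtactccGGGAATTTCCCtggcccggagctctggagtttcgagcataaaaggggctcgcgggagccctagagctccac
Cxcl2: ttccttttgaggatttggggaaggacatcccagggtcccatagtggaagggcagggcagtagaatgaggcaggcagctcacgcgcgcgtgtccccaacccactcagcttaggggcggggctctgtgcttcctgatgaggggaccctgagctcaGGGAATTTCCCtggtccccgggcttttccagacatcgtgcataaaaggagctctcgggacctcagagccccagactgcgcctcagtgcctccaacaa
Cxcl3: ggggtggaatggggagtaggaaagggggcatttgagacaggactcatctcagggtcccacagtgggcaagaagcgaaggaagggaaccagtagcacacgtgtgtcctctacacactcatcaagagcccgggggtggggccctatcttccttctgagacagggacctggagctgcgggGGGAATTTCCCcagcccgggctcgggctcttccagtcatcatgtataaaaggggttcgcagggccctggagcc
Cxcl10: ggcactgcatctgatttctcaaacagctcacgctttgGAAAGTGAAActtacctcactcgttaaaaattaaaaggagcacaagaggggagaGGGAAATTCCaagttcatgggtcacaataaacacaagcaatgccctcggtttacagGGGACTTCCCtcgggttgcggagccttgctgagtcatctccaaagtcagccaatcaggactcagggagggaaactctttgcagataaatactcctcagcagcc
Cxcl1, Cxcl2 and Cxcl3 each hold the run GGGAATTTCCC, in which a pair of overlapping NF-kappaB matches lies. It starts 71 bases before the start site in Cxcl1, 97 in Cxcl2 and 73 in Cxcl3, and this run was chosen after its matches were seen. In Cxcl10 the response element GAAAGTGAAA begins 213 bases before the start, and NF-kappaB matches begin 159 and 103 bases before it.

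Windows of 300 bases, 250 before and 50 after the start, were searched on both strands in 32851 RefSeq promoters, 22 of which belong to 19 of the tested ligands. The NF-kappaB consensus matched in 4.51% of all windows and in those of 5 tested ligands, Ccl27a, Ccl9, Cxcl1, Cxcl10 and Cxcl2. The run GGGAATTTCCC was present in 14 of all windows. GAAANNGAAA matched in 3.44% of all windows and in those of Cxcl10 and Cxcl14, and the interferon gamma-activated site TTCNNNGAA in 8.30% of all windows and in those of Ccl17 and Cxcl14. The STAT6 spacing TTCNNNNGAA was in 6.95% of all windows and in that of Ccl17. The AP-1 element TGANTCA was in 7.81% of all windows and in those of 5 tested ligands, and CCAAT in 37.4% and in those of 4. The motifs for NF-kappaB, GAAANNGAAA and TTCNNNGAA had no match in the Cxcl9 window. A match is a description of letters and no evidence of binding.

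**Figure D4:**
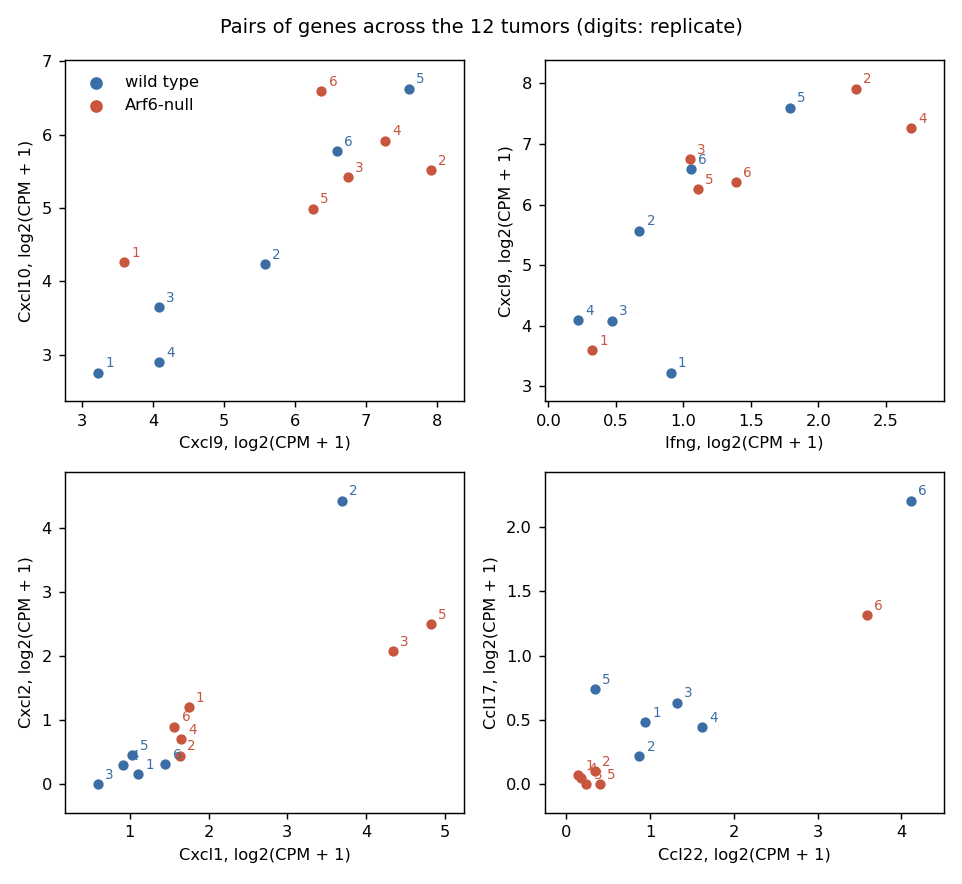
Log2(CPM + 1) of paired genes across 12 tumors, wild type in blue and Arf6-null in red, with the replicate number beside each point. Cxcl10 is higher in tumors with more Cxcl9 and Cxcl9 in tumors with more Ifng in both genotypes, Cxcl1 and Cxcl2 are both high in wild-type replicate 2 and Arf6-null replicates 3 and 5, and Ccl17 and Ccl22 are both high in replicate 6 of each genotype.

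The 4 genes listed here as monocyte-attracting CCR2 ligands, Ccl2, Ccl7, Ccl8 and Ccl12, included the most abundant chemokine of the series. Which receptor each of them engages in these tumors was not measured. Per kilobase of exon, Ccl8 had the highest mean in both genotypes, 483 CPM per kb in wild type and 269 in Arf6-null. Ccl2 was second in Arf6-null tumors (139 CPM per kb) but below Ccl6 in wild type (65.6 against 80.6). Ccl8 had a lowest, median and highest level of 124, 157 and 609 CPM in wild-type tumors and of 64.1, 100.4 and 363 CPM in Arf6-null tumors. The highest tumor of each genotype was its replicate 6, and all other Arf6-null values lay below or among the lowest wild-type values (log2 fold change -0.84, standard error 0.53, edgeR adjusted p = 0.356). The log2 fold change of Ccl8 was -0.34 without wild-type replicate 6 and -1.42 without Arf6-null replicate 6 (edgeR adjusted p = 0.713 and 0.0855). Ccl2 had a lowest, median and highest level of 30.6, 62.8 and 176 CPM in wild-type tumors and of 49.9, 124 and 333 CPM in Arf6-null tumors. The mean lay higher in Arf6-null tumors, at 158 ± 106 CPM against 74.7 ± 52.6 CPM (SD, n = 6 each). Wild-type replicate 2 was above 4 of the 6 Arf6-null tumors, and the difference did not pass (log2 fold change 1.08, standard error 0.50, edgeR adjusted p = 0.218). It was 0.72 without Arf6-null replicate 3. In Arf6-null replicates 3, 4 and 5 Ccl2 had the highest CPM of all ligands, which it had in no wild-type tumor.

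Ccl7 and Ccl12, the other genes of that list, lie in a cluster with Ccl2, Ccl11 and Ccl8 on chromosome 11. Ccl7 had a lowest, median and highest level of 6.56, 15.98 and 111 CPM in wild-type tumors and of 12.1, 33.7 and 79.8 CPM in Arf6-null tumors. It followed Ccl2 across tumors: Pearson's r was 0.79 (permutation p = 0.00258, adjusted p = 0.0133) and Spearman's rho was 0.80 (permutation p = 0.00271, adjusted p = 0.0140), and r was 0.70 without the 2 tumors farthest from the median, 0.74 within wild type and 0.93 within Arf6-null. Ccl12 had a lowest, median and highest level of 11.4, 25.6 and 55.4 CPM in wild-type tumors and of 8.55, 12.4 and 29.01 CPM in Arf6-null tumors. Its mean was lower in Arf6-null tumors and its values overlapped (log2 fold change -0.88, standard error 0.43, edgeR adjusted p = 0.238), and its log2 fold change was -0.56 without wild-type replicate 1. No relation of Ccl8 with Ccl2 was detected (Pearson's r -0.20, permutation p = 0.528, and Spearman's rho -0.27, permutation p = 0.391). The receptor Ccr2 averaged 39.8 CPM (wild type) and 33.7 CPM (Arf6-null). The summed CPM of 11 macrophage and monocyte markers ran from 1171 to 4336 in wild type and from 1659 to 2851 in Arf6-null.

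Among Ccl3, Ccl4, Ccl5, Ccl6 and Ccl9, ligands that attract myeloid cells and lymphocytes, Ccl6 had the highest mean in both genotypes, 80.6 CPM per kb in wild type and 58.1 in Arf6-null. Ccl9 came next in wild type (21.1 CPM per kb, with Ccl5 at 19.1) and Ccl5 in Arf6-null (16.5, with Ccl9 at 11.2). Ccl6 and Ccl9 attract myeloid cells through CCR1. Ccl6 had a lowest, median and highest level of 26.7, 68.2 and 489 CPM in wild-type tumors and of 57.1, 95.4 and 196 CPM in Arf6-null tumors. Ccl9 had a lowest, median and highest level of 13.4, 51.1 and 170.5 CPM in wild-type tumors and of 24.02, 31.5 and 57.7 CPM in Arf6-null tumors. Wild-type replicate 2 was the highest tumor for each, the genotypes overlapped, and neither difference passed (log2 fold changes -0.47 and -0.91, edgeR adjusted p = 0.706 and 0.345). Without wild-type replicate 2, the log2 fold change of Ccl6 was 0.46, in the other direction, and that of Ccl9 was -0.33 (edgeR adjusted p = 0.613 and 0.695). For Ccl6 and Ccl9, Pearson's r was 0.83 (permutation p = 0.00100, adjusted p = 0.00775) and Spearman's rho was 0.69 (permutation p = 0.0154, adjusted p = 0.0478), and r was 0.60 without the 2 tumors farthest from the median, 0.86 within wild type and 0.98 within Arf6-null.

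Ccl3, Ccl4 and Ccl5 had means over 12 tumors of 5.08 CPM per kb for Ccl3 to 17.8 for Ccl5. Ccl4 had a lowest, median and highest level of 0.920, 2.42 and 7.91 CPM in wild-type tumors and of 3.27, 5.36 and 8.82 CPM in Arf6-null tumors. The Arf6-null mean was the higher one and 2 wild-type tumors reached into the upper Arf6-null range (log2 fold change 0.68, standard error 0.51, edgeR adjusted p = 0.444). Without wild-type replicate 5 it was 1.06. Ccl3 averaged 3.91 ± 3.92 CPM (wild type) and 3.88 ± 1.96 CPM (Arf6-null), and Ccl5, made mainly by T and natural killer cells, 18.3 ± 13.7 and 15.8 ± 10.1 CPM (SD, n = 6 each). Ccl3 and Ccl4 lie side by side in the genome and varied together: Pearson's r was 0.86 (permutation p = 5.60e-04, adjusted p = 0.00579) and Spearman's rho was 0.85 (permutation p = 8.70e-04, adjusted p = 0.0135), and r was 0.77 without the 2 tumors farthest from the median, 0.89 within wild type and 0.92 within Arf6-null. Ccl6 followed Ccl3 and Ccl4 over all tumors (Pearson's r 0.75 and 0.72, permutation p = 0.00480 and 0.00753, and Spearman's rho 0.77 and 0.77, permutation p = 0.00483 and 0.00493). Those relations did not hold within the Arf6-null tumors, where r was -0.05 and 0.25. The receptor Ccr1 averaged 74.5 CPM (wild type) and 77.6 CPM (Arf6-null).

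Replicate 6 of each genotype stood out for the CCR4 ligands. Ccl17 and Ccl22, which dendritic cells make and which draw regulatory and type 2 helper T cells, flank Cx3cl1 on chromosome 8. Ccl22 had 0.914, 0.827, 1.49, 2.07, 0.261 and 16.3 CPM in wild-type replicates 1 to 6, and 0.1005, 0.266, 0.178, 0.132, 0.316 and 11.1 CPM in Arf6-null replicates 1 to 6. Ccl17 had a lowest, median and highest level of 0.165, 0.476 and 3.61 CPM in wild-type tumors and of 0, 0.0416 and 1.49 CPM in Arf6-null tumors. The single high value in each genotype was replicate 6 for both genes, and the other 5 Arf6-null tumors had at most 0.316 CPM of Ccl22 and 0.0726 CPM of Ccl17. The log2 fold changes were -1.75 ± 1.18 for Ccl17 and -0.85 ± 1.32 for Ccl22 (standard errors after ±; edgeR adjusted p = 0.390 and 0.732).

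For the pair, Pearson's r was 0.92 (permutation p = 3.70e-04, adjusted p = 0.00573) and Spearman's rho was 0.72 (permutation p = 0.00951, adjusted p = 0.0328), but r was 0.58 without those 2 tumors, so the relation rests on them. They also had the highest dendritic cell marker scores, 3.74 in wild-type and 3.15 in Arf6-null replicate 6, and the highest T cell scores, 4.07 and 3.85. Over all tumors the summed CPM of 10 dendritic cell markers ran from 243 to 416 in wild type and from 266 to 384 in Arf6-null. A part of these cells was not tested. Without wild-type replicate 6 alone, the log2 fold change of Ccl22 was 0.86, in the other direction, and that of Ccl17 was -0.59. Without Arf6-null replicate 6 alone, that of Ccl22 was -4.13 (edgeR adjusted p = 0.0554). Ccr4, the receptor, had too few counts to test.

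Xcl1, the C family chemokine of activated lymphocytes that binds XCR1 on cross-presenting dendritic cells, had the same lone Arf6-null tumor. Xcl1 had a lowest, median and highest level of 0.448, 1.05 and 2.12 CPM in wild-type tumors and of 0.0502, 0.196 and 2.77 CPM in Arf6-null tumors. Arf6-null replicate 6 was the highest of all 12 tumors, while the other 5 Arf6-null tumors, at 0.0502 to 0.297 CPM, lay below every wild-type tumor. Over all tumors the log2 fold change was -0.87, with a standard error of 0.82 (edgeR adjusted p = 0.554). Without Arf6-null replicate 6, Xcl1 and Ccl17 were lower in Arf6-null tumors (edgeR log2 fold changes -2.63 and -4.83, adjusted p = 0.0252 and 0.0372), where 2.11% of all genes were called lower. With only the libraries at 100 CPM of Xist or less, which leaves out both replicates 6 and wild-type replicates 3 and 5, Xcl1 and Ccl22 were (log2 fold changes -2.61 and -2.61, edgeR adjusted p = 0.0460 and 0.0456), against 0.753% of all genes. Over all settings the adjusted p ran from 0.0252 to 0.740 for Xcl1, 0.0372 to 0.801 for Ccl17 and 0.0456 to 0.850 for Ccl22. Xcr1 averaged 2.03 CPM (wild type) and 0.773 CPM (Arf6-null). Exons of Xcl1 overlap Gm20743 on the other strand, and whether the counting used strand is not given in the sources used here. Ccl1, the other lymphocyte ligand, had 26 reads in wild-type and 19 in Arf6-null libraries and was not tested.

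Eotaxins attract eosinophils through CCR3. Ccl11 had a lowest, median and highest level of 5.88, 21.9 and 35.1 CPM in wild-type tumors and of 7.20, 16.8 and 59.99 CPM in Arf6-null tumors. Ccl11 was highest in Arf6-null replicate 2 and lowest in wild-type replicate 4, with wide overlap (log2 fold change 0.23, standard error 0.56, edgeR adjusted p = 0.836). Without Arf6-null replicate 2 its log2 fold change was -0.26. Ccl24 had a lowest, median and highest level of 0, 0.517 and 2.46 CPM in wild-type tumors and of 0.330, 1.17 and 6.31 CPM in Arf6-null tumors. Arf6-null replicate 5 held the highest Ccl24 value and 1 wild-type tumor had no read (log2 fold change 1.40, standard error 0.95, edgeR adjusted p = 0.395). The log2 fold change of Ccl24 was 0.52 without Arf6-null replicate 5 and 2.34 without wild-type replicate 6 (edgeR adjusted p = 0.764 and 0.211). Ccl26 had 0 reads. Ccr3 averaged 4.44 CPM (wild type) and 7.20 CPM (Arf6-null).

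Of the ligands that organize lymphoid tissue, only Cxcl13 was measured at depth. Cxcl13 draws B cells and follicular helper T cells through CXCR5. Cxcl13 had a lowest, median and highest level of 0.426, 2.03 and 185 CPM in wild-type tumors and of 0.601, 6.04 and 13.5 CPM in Arf6-null tumors. Wild-type replicate 5, at 185 CPM, set the wild-type mean, and the other 5 wild-type tumors had at most 3.34 CPM. The log2 fold change was -2.39, with a standard error of 1.50 (edgeR adjusted p = 0.360) with that tumor and 1.87 without it (adjusted p = 0.218, over all settings 0.218 to 0.956). Cxcr5 had too few counts to test. Reads for Ccl19 and the Ccl21 genes, the CCR7 ligands of lymph node stroma, were 0 except for 1 read of Ccl21a. A count of 0 allows up to 0.00805 CPM over the 12 libraries, at 3 counts and for counting error only. These genes have near-identical copies on chromosome 4 and on scaffolds, how multi-mapping reads were handled is not given in the sources used here, and their low counts are uncertain. Ccr7 averaged 5.95 CPM (wild type) and 3.26 CPM (Arf6-null).

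The epithelial and mucosal ligands included the steadiest members. Ccl25, the ligand of CCR9, had 7.77 ± 1.11 and 7.67 ± 1.20 CPM in the respective genotypes, wild type first. Ccl27a, the skin ligand of CCR10, had 4.75 ± 0.971 and 4.52 ± 0.447 CPM (SD, n = 6 each), and Ccl28, which binds the same receptor, ranged from 0.0657 to 1.83 and from 0.301 to 1.83 CPM. None of the 3 differed beyond the spread (edgeR adjusted p = 0.957, 0.840 and 0.897). Exons of Ccl25 overlap Elavl1 and those of Ccl27a overlap Il11ra1 on the other strand. Cxcl10 likewise overlaps Art3, and Cxcl16 overlaps Zmynd15. Cxcl14, a ligand made by normal skin and stroma, was far more abundant. Cxcl14 had a lowest, median and highest level of 9.29, 77.3 and 203 CPM in wild-type tumors and of 1.75, 81.98 and 248 CPM in Arf6-null tumors. Arf6-null replicate 3 was far below all other tumors and wild-type replicate 2 was the next lowest (log2 fold change 0.06, standard error 0.83, edgeR adjusted p = 0.975). Ccl20 had 7 and 9 reads in wild-type and Arf6-null libraries and Cxcl17 had 10 in each, too few to test. Ccl27b had 1 read, and Cxcl15 and both Ccl27 identifiers had 0.

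Scores of the other marker lists, each the mean log2(CPM + 1) of the tested genes, overlapped between genotypes. Scores ran from 5.81 to 7.61 (wild type) and from 6.19 to 6.79 (Arf6-null) for macrophage and monocyte markers, from 2.22 to 3.74 and 2.15 to 3.15 for dendritic cell markers, and from 1.95 to 4.28 and 2.35 to 4.49 for neutrophil markers. For T cell markers they ran from 1.45 to 4.07 and 1.55 to 3.85, for cytotoxic lymphocyte markers from 2.57 to 4.52 and 2.57 to 3.80, and for B and plasma cell markers from 0.90 to 3.80 and 0.57 to 2.22. Mast cell markers ran from 2.66 to 6.12 and 0.80 to 3.83, fibroblast markers from 8.80 to 10.53 and 6.59 to 9.57, and endothelial and lymphatic markers from 4.13 to 5.18 and 2.86 to 4.37. Adipocyte markers ran from 1.21 to 3.47 and 0.99 to 2.54, Schwann cell markers from 2.53 to 3.62 and 1.69 to 2.73, keratinocyte markers from 1.28 to 1.82 and 1.35 to 2.40, and melanocyte markers from 2.26 to 2.86 and 2.13 to 3.0. At an unadjusted edgeR p under 0.05, all 7 mast cell markers were lower in Arf6-null tumors, against 12.4% of all tested genes. So were 3 of 4 tested Schwann cell and 2 of 3 adipocyte markers. In either direction, 5 of 8 endothelial, 3 of 9 fibroblast and 3 of 10 dendritic cell markers had such a p-value. So did 1 of 7 cytotoxic lymphocyte and 1 of 2 B and plasma cell markers. No tested T cell, macrophage and monocyte, neutrophil, keratinocyte or melanocyte marker did. Beside Pvalb, 1 marker gene passed the test: Cd209a, a lectin of monocyte-derived dendritic cells, was lower in Arf6-null tumors by edgeR's test (log2 fold change -4.25, adjusted p = 0.0292).

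**Figure D5:**
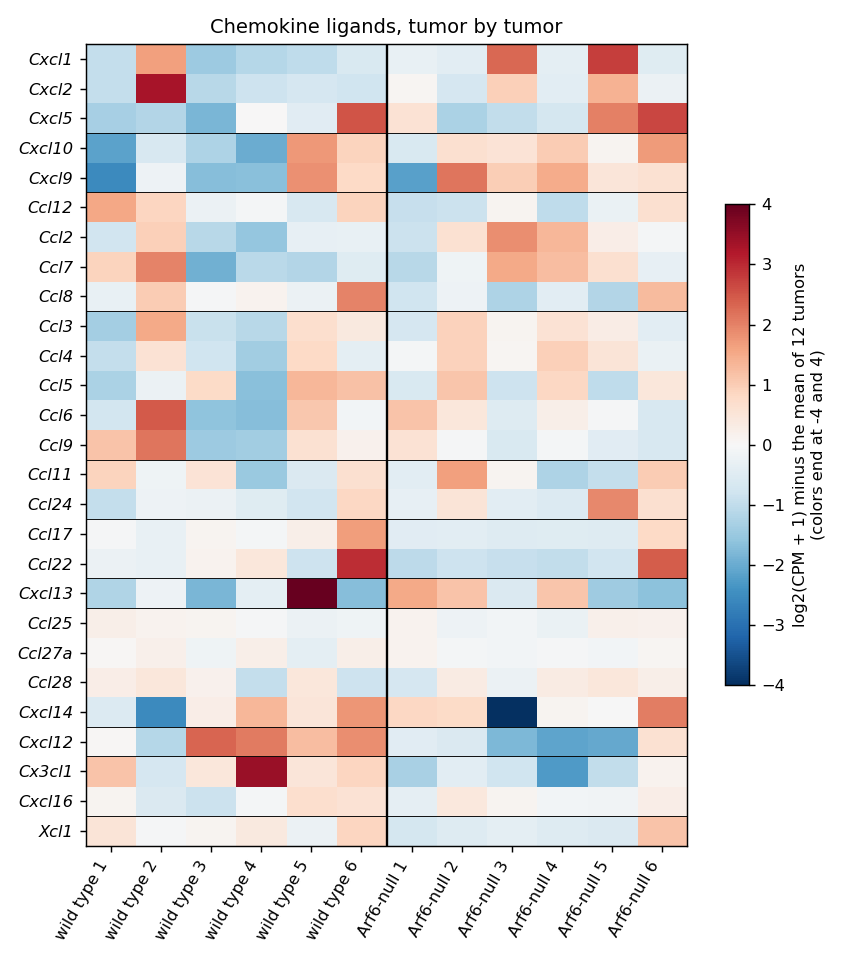
Deviation of each tested chemokine ligand (rows, grouped by role) in each tumor (columns) from its mean over 12 tumors, on log2(CPM + 1), red above and blue below, with colors ending at -4 and 4 and a black line between the genotypes. Wild-type replicate 2 is high for Cxcl1, Cxcl2, Ccl3, Ccl6, Ccl7 and Ccl9, replicate 6 of both genotypes is high for Ccl17, Ccl22 and Xcl1, and wild-type replicate 5 is high for Cxcl13.

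Seen as a pool, the members summed to 741, 1265 and 1688 CPM (lowest, median and highest) in wild-type tumors and to 703, 952 and 1328 CPM in Arf6-null tumors. The sums overlapped. The ligand with the highest CPM changed from tumor to tumor: Ccl8 in wild-type replicates 1 and 6 and Arf6-null replicate 6, and Ccl6 in wild-type replicate 2 and Arf6-null replicate 1. Cxcl12 led in wild-type replicate 3, Cx3cl1 in wild-type replicate 4, and Cxcl9 in wild-type replicate 5 and Arf6-null replicate 2. Per kilobase of exon, the order of means over all 12 tumors, which differed by genotype, was Ccl8 (376 CPM per kb), Ccl2 (102), Ccl6 (69.4), Cxcl14 (51.6), Ccl7 (47.97) and Ccl12 (40.2). Neighbours in that order, Ccl8 and Ccl2 included, differed by less than the larger of their SDs over tumors, which was 312 CPM per kb for Ccl8 and 79.7 for Ccl2. By genotype, Ccl8 averaged 483 and 269 CPM per kb in wild type and Arf6-null, Ccl2 65.6 and 139, Ccl6 80.6 and 58.1, Cxcl12 15.3 and 3.26, and Cx3cl1 29.98 and 5.58.

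The genes around the ligands likewise gave no call in either direction in the lists examined, at the same backgrounds of 0.586% and 0.561%. Of 18 signalling receptors 12 were tested, with a median log2 fold change of 0.01, 6 positive and 6 negative. Of 5 atypical receptors all were tested, with a median of -0.65, and Ackr4, a scavenger of CCL19 and CCL21, averaged 4.24 CPM (wild type) and 1.58 CPM (Arf6-null) (edgeR adjusted p = 0.215). Of 14 listed symbols for receptor signalling and desensitization 12 were tested, with a median of -0.13. Among them Pik3cg, the phosphoinositide kinase of chemotaxis, averaged 19.1 and 10.99 CPM, and Gnai2, the G protein subunit that couples these receptors, 574 and 673 CPM (edgeR adjusted p = 0.117 and 0.155). All 7 proteases that trim or shed chemokines were tested, 1 with a positive and 6 with a negative log2 fold change and a median of -0.46. Anpep, which trims their amino ends, averaged 65.9 CPM (wild type) and 46.6 CPM (Arf6-null) (edgeR adjusted p = 0.288).

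Ifngr1, a chain of the interferon gamma receptor, averaged 272 CPM (wild type) and 170.1 CPM (Arf6-null) (edgeR adjusted p = 0.262). Of 15 NF-kappaB and inflammatory genes 14 were tested, 12 with a positive and 2 with a negative log2 fold change and a median of 0.37, where the median of all genes was -0.03 and 47.2% of all genes were positive. Rela, the main activating NF-kappaB subunit, had a lowest, median and highest level of 71.2, 75.2 and 80.01 CPM in wild type and 85.1, 90.6 and 92.6 CPM in Arf6-null tumors. The groups did not overlap, a feature of 1.15% of all tested genes in this direction, and the log2 fold change of 0.26 ± 0.06 (SE) did not pass (edgeR adjusted p = 0.0583). Lta, a cytokine that acts through NF-kappaB, averaged 0.681 CPM (wild type) and 0.343 CPM (Arf6-null) (edgeR adjusted p = 0.149). Il1b, an inducer of Cxcl1 and Cxcl2 that was singled out after its values were seen, averaged 22.02 ± 18.3 and 52.3 ± 26.4 CPM (SD, n = 6 each, edgeR adjusted p = 0.233).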

How the data were processed

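RNA sequencing libraries came from 12 tumors, 6 per genotype. The labels' protocols name a Direct-zol RNA kit and the stranded TruSeq mRNA library kit. The authors deposited 1 table of raw read counts per gene, in whole numbers. Per the submitters' processing notes the tools were STAR 2.7.3a, featureCounts 1.6.3 and DESeq2 1.26.0 and the build GRCm38 (mm10). Strand setting, treatment of multi-mapping reads and annotation were not given in the sources used here.

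Symbols, gene types, positions and merged exon lengths came from GENCODE M21 (GRCm38), where 55227 identifiers were found. The other 260 have no symbol. The filter (filterByExpr, minimum 10 counts) left 16225 genes. The genotype test was the quasi-likelihood F test in edgeR 4.0.16 (TMM scaling, robust, no covariate) in R 4.3.3, with Benjamini-Hochberg adjustment over all tested genes and a threshold of 0.05. Standard errors were derived from the fit, and the functions were tested on simulated data. CPM values use the TMM-scaled library size. Scores, correlations and figures use log2(CPM + 1), and the score of a list is the mean over its tested genes. Pair correlations covered ligands of 1 role, and Ifng with Cxcl9 and Cxcl10, with 100000 permutations and adjustment over 31 pairs. No pair of libraries agreed within sampling noise: the closest, Arf6-null replicates 1 and 5, had a chi-square of 94.0 per degree of freedom.

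Named ligands were those past the threshold, the 12 with the smallest p and the most abundant of each role, and 2 genes per pathway list. The counts of 1 pathway list are not reported here. Cxcl10, Cxcl2, Cxcl3, Ccl3, Ccl5, Ccl7, Ccl25, Ccl27a and Ccl28, and receptors named beside their ligands, were added after their values were seen. The members and lists were chosen with earlier results of these data known. Alternatives were upper-quartile or median-of-ratios scaling, DESeq2 1.42.0 (Wald test), limma 3.58.1 with voom quality weights, no filter or 1 CPM in 6 libraries, a Y-linked covariate, only libraries with Xist at most 100 CPM, no muscle-rich tumors, each library left out, and a threshold of 0.1.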

Additional observations from a re-analysis of the deposited data

Results flagged for a closer look

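Single tumors far from the other 5 of their genotype were looked for in 58 sets of 6 values with Dixon's gap test at its 95% critical value. Ligand values were on log2(CPM + 1), while library totals and summed ligand CPM were not log-transformed. It singled out 9 sets, where chance alone gives about 1 in 20, and all 9 were among the 54 sets of ligand values, the others being library totals and summed ligand levels. They fall on wild-type replicates 2, 5 and 6 and Arf6-null replicates 3 and 6.

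Replicate 6 of both genotypes was singled out for the CCR4 ligands. Ccl17 was 2.204 in wild-type replicate 6 and 0.2208 to 0.7413 in the other 5, and 1.316 in Arf6-null replicate 6, against 0 to 0.1011. Ccl22 was 4.116 in wild-type replicate 6, against 0.3348 to 1.618, and 3.592 in Arf6-null replicate 6, against 0.1381 to 0.3966. Arf6-null replicate 6 was also apart for Xcl1, at 1.915 against 0.07071 to 0.3751.

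Wild-type replicate 2 was apart for the neutrophil-attracting ligands, with Cxcl1 at 3.69 against 0.5958 to 1.451 and Cxcl2 at 4.427 against 0 to 0.4575. Wild-type replicate 5 was apart for Cxcl13, at 7.536 against 0.5121 to 2.118. Arf6-null replicate 3 was the only tumor apart on the low side, with Cxcl14 at 1.46 against 5.883 to 7.961.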

How the results depend on the processing

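The count of ligands higher in Arf6-null tumors was 0 under all 22 alternatives. The count of lower ligands, 0 as reported, was 2 with DESeq2 (Cx3cl1 and Cxcl12), 2 at an adjusted p under 0.1 (the same genes, where 4.43% of all genes were called lower), 2 with only libraries at 100 CPM of Xist or less (Xcl1 and Ccl22), and 0 to 3 when 1 library was left out. It was 2 without wild-type replicate 2 and 3 without Arf6-null replicate 6 (Xcl1, Ccl17 and Cxcl12), and 0 without any other library.

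Counts over all genes, 95 higher and 91 lower, moved widely. They were 986 and 1255 with DESeq2, 513 and 483 with limma-voom, 641 and 718 at a threshold of 0.1, 12 and 17 with the Y-linked covariate, and 14 and 21 without the muscle-rich tumors. Without the filter 72 were higher and 55 lower. Leaving out 1 library gave 13 to 388 higher and 9 to 378 lower. The counts were above 1.5 times the reported ones without wild-type replicate 2 (388 and 378), wild-type replicate 5 (256 and 281) or Arf6-null replicate 6 (328 and 344). They were 13 to 37 higher and 9 to 32 lower without any 1 of wild-type replicates 1, 3, 4 and 6 and Arf6-null replicates 1, 2 and 4, and 47 were lower without Arf6-null replicate 3. The cause was not tested.

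Of 435 values for named ligands, 398 kept direction and side of the threshold, 9 passed it and 28 changed sign, none of which was past the threshold. The 398 include the DESeq2 values of Ccl17, Ccl22, Cxcl13 and Cxcl2. These had no adjusted p and were counted as not past the threshold. Ccl11 was -0.10 (log2 fold change) without the muscle-rich tumors. Ccl6 was 0.70, Cxcl13 0.97 and Cxcl2 2.16 with limma-voom, Cxcl14 -0.20 and Cxcl16 0.095. With the Y-linked covariate Cxcl13 was 0.30 and Cxcl16 0.16. With only low-Xist libraries Cxcl13 was 1.56, Cxcl14 -0.0053 and Cxcl16 0.15. Cxcl13 was 1.87 without the muscle-rich tumors, and Cxcl16 0.0043 with no filter. With 1 library left out, values ran from -0.26 to 0.44 for Ccl11, -4.13 to 0.86 for Ccl22, -0.75 to 0.46 for Ccl6, -2.79 to 1.87 for Cxcl13, -0.49 to 0.45 for Cxcl14, -0.16 to 0.12 for Cxcl16, -1.49 to 3.21 for Cxcl2 and -0.018 to 2.43 for Cxcl5.

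Ligands under about 1 CPM rest on few reads, and a difference there was not detectable at this depth unless large. No paired analysis was possible because the labels link no wild-type tumor to an Arf6-null tumor. The replicate numbers used here are only an order within each genotype. The design text calls the wild-type tumors matched without saying by what, and no matching was used here.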
